A study of Caenorhabditis elegans with 2 samples.

Results

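The 6 ONECUT-class homeobox genes of Caenorhabditis elegans, ceh-38, ceh-48, ceh-49, ceh-21, ceh-39 and ceh-41, were examined in lists of candidate regions from immunoprecipitation of the homeodomain protein ALR-1. The candidates are peaks together with background, so a region in the pooled or a replicate list need not be bound. They are 6 of 19973 protein-coding genes. The class was chosen on measured values, because the region with the highest pooled signal lay at ceh-38, so the values at ceh-38 are a description and were not tested. A region was assigned to a member when its nearest protein-coding transcript start was the member's, or when its point source (the single position the list gives for a region) lay in the member's gene body. By this rule 6 of 12996 regions of the pooled list were assigned to members, 1 of 5071 in replicate 1, 5 of 7568 in replicate 2, and 1 of 103 in the thresholded list.

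The assay was ChIP-seq: an antibody recovers a protein with the DNA attached to it, and that DNA is sequenced. Both libraries came from whole L2 larvae, of pooled sex, from the strain OP200, genotype unc-119(ed3) III; wgIs200. The wgIs200 insertion supplies eGFP-tagged alr-1, and the labels give the antibody as alr-1 and name neither the promoter of the insertion nor whether the endogenous alr-1 gene was intact. There were 2 biological replicates in 1 group, with no second condition, and a control library was not analysed here. Whole animals were used, so the cells that gave a region cannot be told apart.

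ONECUT proteins are transcription factors with a single cut domain followed by a homeodomain, both of which contact DNA. The vertebrate members act in liver, pancreas and neurons. In Caenorhabditis elegans, the ONECUT genes act together with ceh-44, a gene of the related CUX class, in the expression of genes shared by all neurons, and ceh-39 is also known as an X-signal element, one of the genes on X whose dose is read in sex determination through repression of xol-1. ALR-1, the immunoprecipitated protein, is a homeodomain protein of the Aristaless type with roles in sensory and motor neurons.

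The sequences of 3 member regions are shown because they hold the strongest region of the class, the next strongest, and the one region placed upstream of ceh-39. They are from the RefSeq sequence of WBcel235 (the sequence of ce11), 5′ to 3′ on the strand of the gene. Capitals mark TAAT or its reverse complement ATTA, the core of a homeodomain half-site. For ceh-38 the stretch chrII:6951392-6951525 (plus strand) ends at the base before the first transcript start, for ceh-48 it is chrIV:6809880-6810179 (plus strand), and for ceh-39 chrX:1856285-1856584 (minus strand).
ceh-38: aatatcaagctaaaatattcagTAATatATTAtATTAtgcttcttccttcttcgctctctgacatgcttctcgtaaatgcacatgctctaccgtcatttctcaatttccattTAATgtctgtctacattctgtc
ceh-48: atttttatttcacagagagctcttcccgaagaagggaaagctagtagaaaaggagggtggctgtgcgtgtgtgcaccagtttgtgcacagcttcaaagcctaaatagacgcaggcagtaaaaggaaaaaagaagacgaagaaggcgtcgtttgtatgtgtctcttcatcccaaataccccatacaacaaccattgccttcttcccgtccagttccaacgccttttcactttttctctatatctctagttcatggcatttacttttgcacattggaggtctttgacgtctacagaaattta
ceh-39: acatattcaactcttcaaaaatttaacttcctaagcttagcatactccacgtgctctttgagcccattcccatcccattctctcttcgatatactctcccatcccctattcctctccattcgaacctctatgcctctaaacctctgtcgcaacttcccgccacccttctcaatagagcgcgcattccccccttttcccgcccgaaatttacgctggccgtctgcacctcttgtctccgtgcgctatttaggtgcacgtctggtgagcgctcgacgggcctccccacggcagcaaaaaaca
The 134 bases printed for ceh-38 hold 4 of the marked cores but are only the part of the region before the start, without its point, so they are not set against the longer stretches, which hold 0. Within 100 bp of the pooled point the GC content at ceh-38 was 44.3%, higher than in 81.1% of pooled regions. At the upstream region of ceh-48 it was 45.8%. Within 150 bp of its point the ceh-38 region held 4 cores, and 40.7% of all pooled regions held as many or more (median 3). Within 100 bp it held 1, below the median of 2.

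Of the 6 members, 4 had at least 1 region in the pooled list, against 39% of all protein-coding genes. In replicate 1 it was 1 member, against 20.0% of genes, and in replicate 2 it was 4 members, against 25.7%. A region in both replicates was assigned to 1 member, against 11.5% of genes. In the IDR list (irreproducible discovery rate, a threshold on how alike regions rank between replicates) there was 1 member, ceh-38, against 0.521% of genes. Because ceh-38 was the reason for choosing the class, nothing is read from the last count. The other 5 members had no IDR peak. The list is named the optimal one, and 81.6% of its 103 peaks overlapped a region of both replicates. A peak in it thus need not have a region in each replicate.

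**Figure D1:**
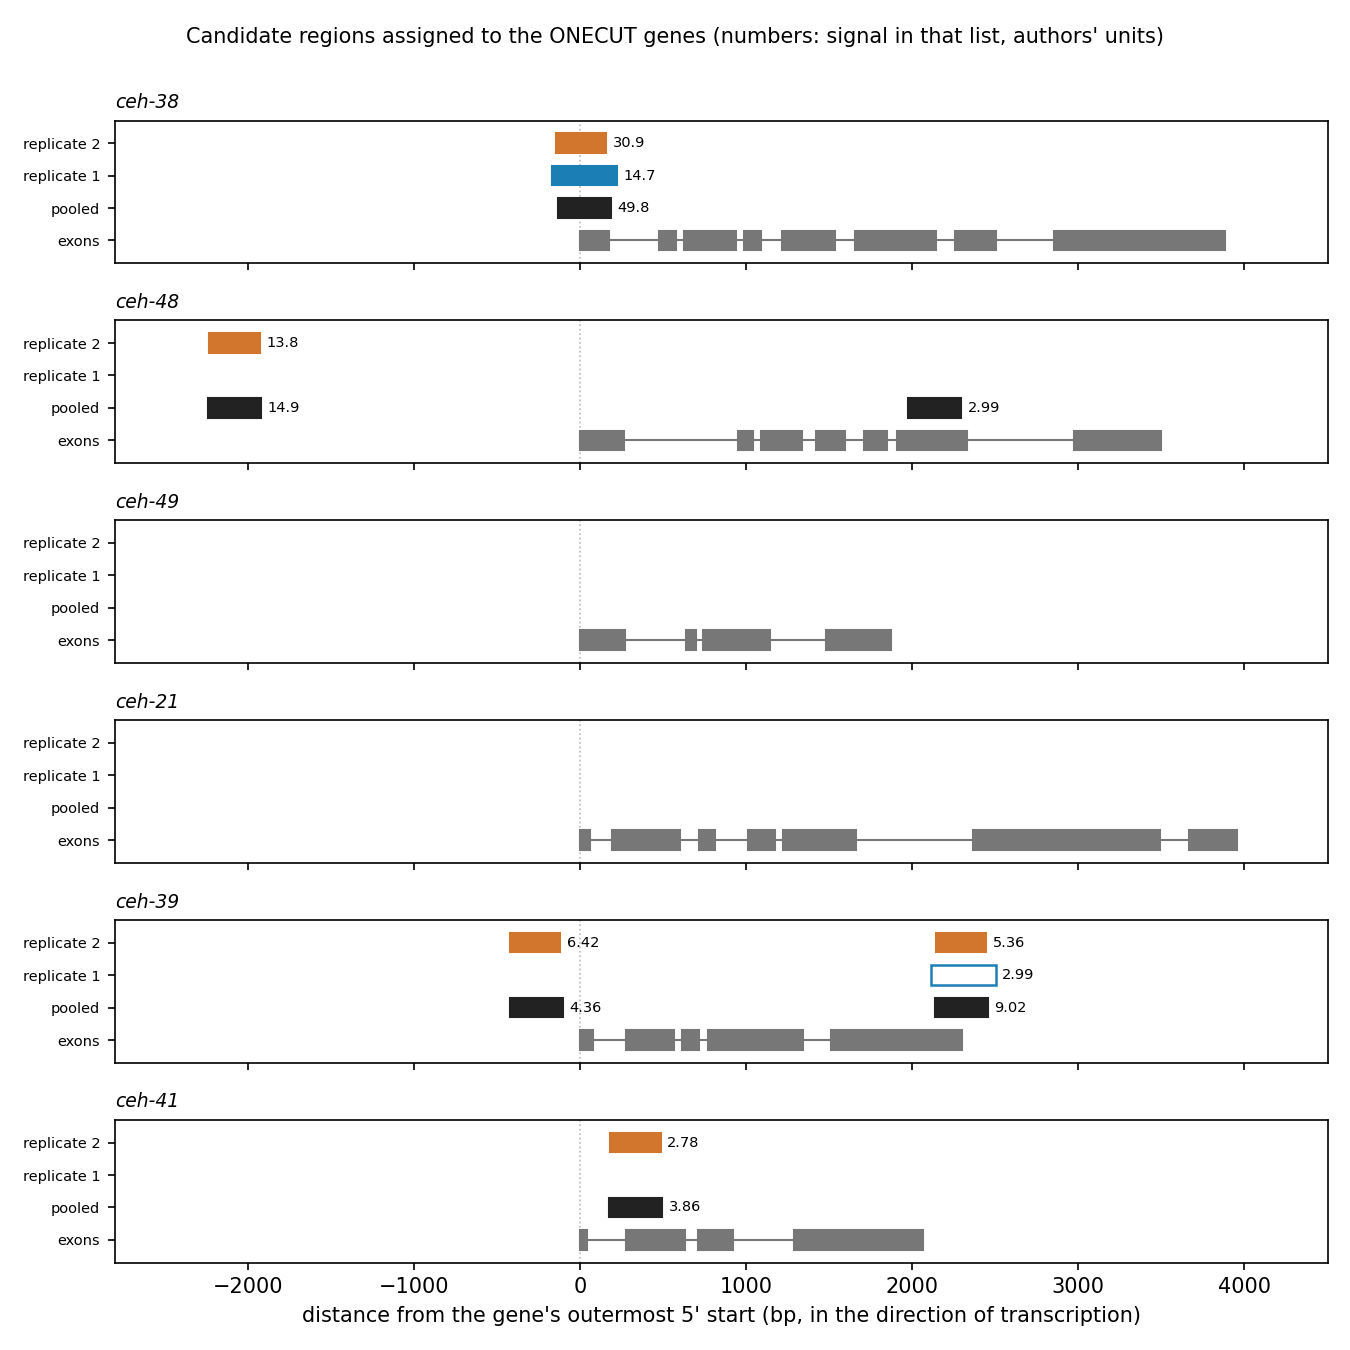
Regions at each ONECUT gene against distance in bp from its outermost transcript start, in the direction of transcription, with the exons in grey, and each list in its own row with the signal printed beside each box. The open box at ceh-39 is a replicate 1 region that overlapped the pooled region there but was assigned to T26C11.9. At ceh-38 a region stood at the start in all 3 lists, and ceh-49 and ceh-21 had none.

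ceh-38, a broadly expressed ONECUT gene, lies at II:6951526-6955409 on the plus strand and has 24 annotated transcripts with 11 starts spread over 544 bp. Its pooled region, II:6951392-6951711, had a signal of 49.8 in the units of the authors' caller, which put it at rank 1. The second strongest pooled region had a signal of 48.9. The region of replicate 1, II:6951358-6951747, had a signal of 14.7 and rank 9, which was 70.5% of the strongest signal in that replicate. The region of replicate 2, II:6951381-6951684, had a signal of 30.9 and rank 2, which was 73.8% of the strongest. In each list the region thus stood within the top 0.177% by signal, and its −log10 q-value was at the ceiling of the list (2.90 pooled, 2.20 in replicate 1 and 3.07 in replicate 2).

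Signals are compared here only within a list, since the scale is not stated and the lists differ in length and width. Against the median region of its list, the ceh-38 signal was 12.8 times as high in the pooled list, 5.01 times in replicate 1 and 8.94 times in replicate 2. The points of the 3 regions lay close together, 26 bp (pooled), 27 bp (replicate 1) and 7 bp (replicate 2) downstream of the first ceh-38 start, in the 5′ UTR. The pooled point was 1 bp from that of replicate 1 and 19 bp from that of replicate 2. Over all pooled regions that overlapped a replicate's region, the median distance was 42 bp for replicate 1 and 16 bp for replicate 2.

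The ceh-38 region also lay in the promoter of a neighbour. malt-1, a gene related to the vertebrate paracaspase MALT1, lies at II:6947855-6951300 on the minus strand, and its start was 252 bp from the point of the pooled region. The lists do not tell which of the 2 divergent genes, if either, the region bears on.

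ceh-48, the ONECUT gene expressed throughout the nervous system, lies at IV:6812108-6815607 on the plus strand and had 2 pooled regions. The upstream one, IV:6809870-6810189, was intergenic, with its point 2078 bp upstream of the ceh-48 start and 400 bp past the end of C17H12.10. Its pooled signal was 14.9, rank 377, within the top 2.90% of the list, and its −log10 q-value was at the ceiling of 2.90. It was below the IDR list, whose weakest peak had a signal of 21.3, while the strongest region left out of that list had 21.2. In replicate 2 the region IV:6809878-6810181 had a signal of 13.8 and rank 128, with its point at the same base as the pooled one. In replicate 1 no region overlapped it, and the nearest point was 3212 bp away. The pooled signal at ceh-38 was 3.34 times that at the upstream region of ceh-48, and in replicate 2 it was 2.24 times.

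The other ceh-48 region, IV:6814082-6814401, had its point in a coding exon 2134 bp downstream of the start. Its signal of 2.99 gave rank 9511, low in the list, and its −log10 q-value was 0.15. No region of either replicate overlapped it.

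ceh-39, ceh-21 and ceh-41 lie next to each other on X, all on the minus strand, in a stretch of 9565 bp (X:1846608-1856172). The stretch holds 4 protein-coding genes, the remaining one being T26C11.9 between ceh-21 and ceh-39. ceh-39 (X:1853874-1856172), the X-signal element, had 2 pooled regions. The upstream one, X:1856275-1856594, had its point 263 bp upstream of the ceh-39 start, with a signal of 4.36, rank 5586 and a −log10 q-value of 0.42. In replicate 2 the region X:1856291-1856594 had a signal of 6.42, rank 1220 and a −log10 q-value of 2.43, and replicate 1 had none there. The GC content within 100 bp of the pooled point, 53.7%, was higher than in 98.3% of pooled regions.

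The region at the 3′ end of ceh-39, X:1853716-1854035, had a pooled signal of 9.02 and rank 1463. Its point lay 2 bp inside the end of ceh-39, in the 3′ UTR, and 27 bp upstream of the start of T26C11.9 (X:1852838-1853849), so that it was in the promoter of that gene. In replicate 2 the signal was 5.36 and the rank 1779. In replicate 1 an overlapping region had a signal of 2.99 and rank 2475, with its point 11 bp away and outside the ceh-39 gene body, so it was assigned to T26C11.9. In the pooled list the 3′ region of ceh-39 had the higher signal of the pair (9.02 against 4.36), and in replicate 2 the upstream region had (6.42 against 5.36), so the replicates do not settle their order.

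ceh-41 (X:1846608-1848675) had 1 pooled region, X:1848181-1848500, with its point in a coding exon 334 bp downstream of the start. Its signal of 3.86 gave rank 6709, close to the median pooled signal of 3.89. In replicate 2 the signal was 2.78 and the rank 5390 of 7568, and replicate 1 had none. ceh-21 (X:1848779-1852736) had no region in any list, and the nearest pooled point, 438 bp from its body, was that of the ceh-41 region. ceh-49 (V:6118333-6120206, minus strand) had none either, and the nearest pooled point lay 5681 bp from its body.

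**Figure D2:**
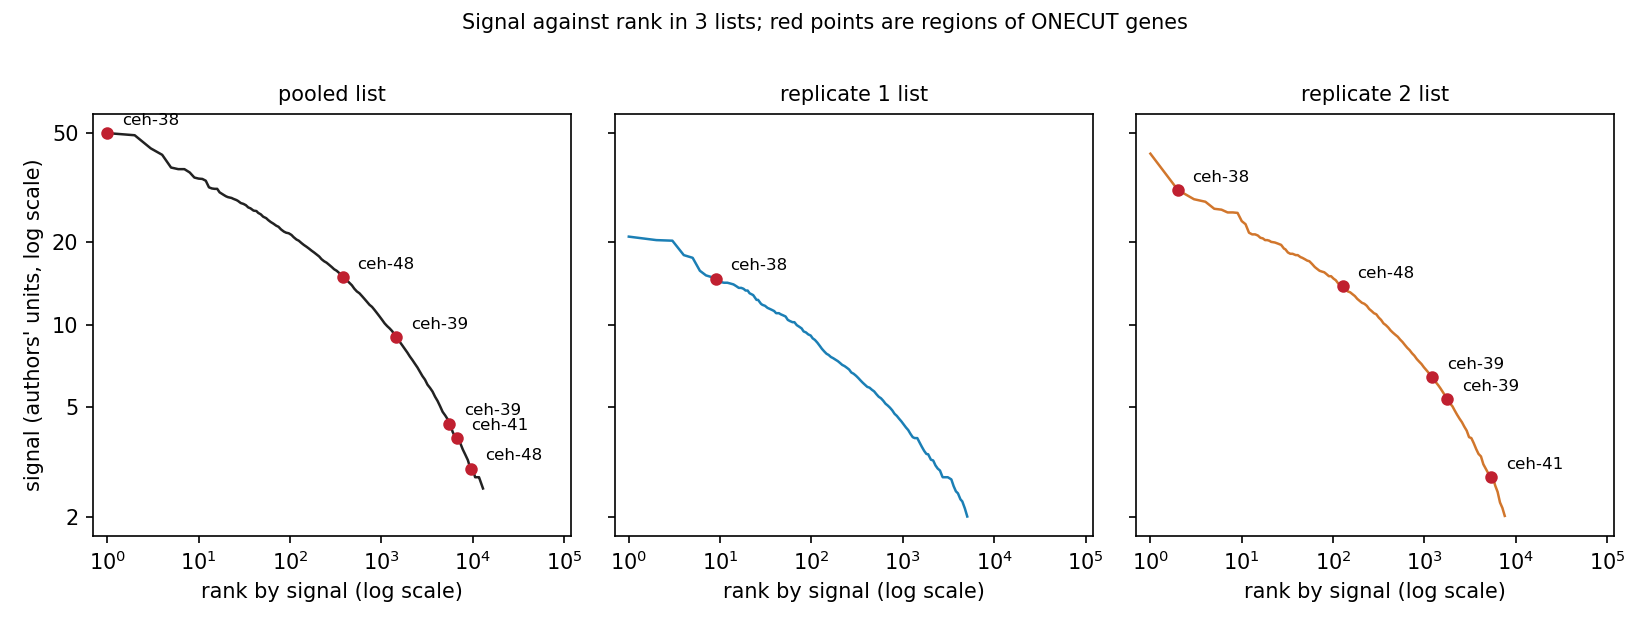
Signal in the units of the authors' caller against rank, both on log scales, for all regions of the pooled list and of each replicate, with the regions of ONECUT genes as red points. The ceh-38 point lies at rank 1, 9 and 2, and the regions of ceh-39 and ceh-41 lie on the lower slope of each list that holds them.

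The members' order by strongest pooled signal was thus ceh-38 (49.8), ceh-48 (14.9), ceh-39 (9.02) and ceh-41 (3.86), with ceh-49 and ceh-21 unassigned. Replicate 2, which is part of the pooled data, gave the same order with 30.9, 13.8, 6.42 and 2.78. For ceh-39 the strongest region was the 3′ one in the pooled list and the upstream one in replicate 2. Replicate 1 ranked ceh-38 only. With 1 pooled value and at most 2 replicate values for each member, no error can be attached to these differences.

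Of the 6 pooled member regions, 2 overlapped a region of replicate 1 by at least 1 bp, against 30.9% of all pooled regions. In replicate 2 it was 5 of 6, against 48.6%, and in both replicates 2 of 6 (at ceh-38 and at the 3′ end of ceh-39), against 13.3%. Over the whole list overlap was more frequent at the higher signals. Among the 103 IDR peaks 81.6% overlapped both replicates, as the ceh-38 region did. Among the 897 regions ranked between these and rank 1000, 66.3% overlapped replicate 1, where the upstream region of ceh-48 did not. Below rank 5000, 32.4% overlapped replicate 2 and 2.98% overlapped both. Of the 3 member regions ranked there, those of ceh-39 (upstream) and ceh-41 overlapped replicate 2 and the exonic one of ceh-48 overlapped neither.

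The point lay in a promoter, taken as the 1000 bp before and the 200 bp after a protein-coding start, in 3 of the 6 member regions and in 40.3% of all pooled regions. One of the 3 was the 3′ region of ceh-39, by way of T26C11.9. TAATTA, the core of many homeodomain sites, was searched on both strands within 100 bp of the point and was in 0 of the 6 member regions, against 7.97% of all pooled regions. ATCGAT and ATTGAT, cores of cut-domain sites, were in 0 and 1 of the 6 (the 3′ region of ceh-39), against 6.83% and 19.6%. A palindrome of paired-type homeodomains, TAAT and ATTA with 3 bases between them, was in 0 of 6, against 0.908%. Other spacings, such as that of TAATatATTA in the printed ceh-38 sequence, were not searched. TAAT, which TAATTA contains, was in 3 of 6 (ceh-38, the exonic region of ceh-48 and the 3′ region of ceh-39), against 80.5%. It was chosen for the search after the sequences had been seen.

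Among 94 other homeobox genes, 44 (46.8%) had a pooled region, against 39% of all protein-coding genes, and 15 (16.0%) had one in both replicates, against 11.5%. Against 0.521% of all genes, 1 of the 94 had an IDR peak. That gene was alr-1 itself, with 21 pooled regions, 4 IDR peaks and a strongest signal of 26.5 at rank 37, below ceh-38. The insertion carries alr-1 sequence, and its part in the values at alr-1 was not tested. ceh-44, the CUX-class partner, had 3 pooled regions, the strongest with a signal of 7.81 at rank 1958, below the strongest regions of ceh-38, ceh-48 and ceh-39 and above that of ceh-41. Its strongest regions ranked 1893 in replicate 1 and 1404 in replicate 2.

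Of 25 genes expressed in all neurons, 23 (92.0%) had a pooled region, against 39% of all protein-coding genes. In replicate 1 it was 17 (68.0%), against 20.0%, and in replicate 2 it was 24 (96.0%), against 25.7%. The 25 genes are long, with a median of 6087 bp against 2027 bp for all protein-coding genes and 2899 bp for the ONECUT genes. A longer body takes in more points under the assignment rule. The part of gene length in these counts was not tested. One of the 25, syd-2, which encodes a liprin of the presynaptic active zone, had an IDR peak with a signal of 43.8 at rank 3. Of 9 annotated genes of X counting and sex determination, 6 had a pooled region, against 39% of all protein-coding genes. None of the 9 had an IDR peak, against 0.521% of all genes. Their median length was 6772 bp, and its part in these counts was not tested either.

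**Figure D3:**
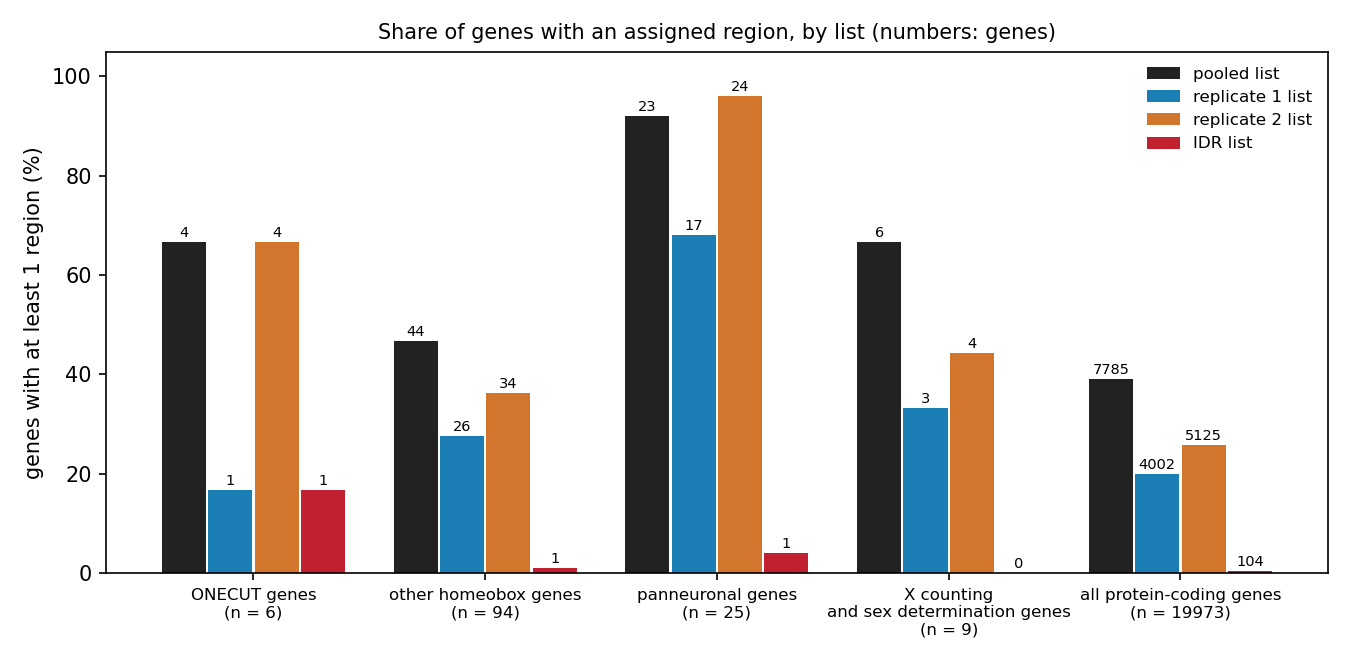
Percent of genes with at least 1 assigned region in the pooled list, in each replicate and in the IDR list, for the 6 ONECUT genes, other homeobox genes, panneuronal genes, genes of X counting and sex determination, and all protein-coding genes, with the number of genes above each bar. The ONECUT bars stand for 4, 1, 4 and 1 genes, and the panneuronal genes stand highest in the pooled and replicate lists.

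The genes most like ceh-38 over the 2 replicates were sought among the 2302 other genes with a region in both, by the sum of the differences in rank percentile of the strongest region. The closest was fkh-7, a forkhead gene, with ranks 6 and 14, a difference of 0.22 percentage points and a strongest pooled signal of 37.3. Next came eef-1A.2, which encodes a translation elongation factor, with ranks 16 and 15 and a difference of 0.31. The last of the 3 was zfp-1, a PHD-finger gene, with ranks 38 and 1 and a difference of 0.59.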

How the data were processed

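Candidate regions (peaks with background, as input for IDR) were called by the authors for each replicate and for both together (pooled), and an IDR list was derived from them, per the file notes. Most candidates are therefore not thresholded peaks. The aligner, caller and threshold are not stated in the labels or file notes used here. The deposited lists give a signal of unstated scale and a −log10 q-value for each region, both the authors' own. The −log10 q-values are capped (402 pooled regions share the ceiling), so regions were ranked by signal within each list. Read depth is unknown. Only the ce11 lists were used; all their regions lay within the chromosomes of WBcel235. Genes came from Ensembl release 115, where ceh-44 is named cone-1 and was matched by its locus tag. No test was made. All 6 members and the cut-class gene ceh-44 were named, genes of the other lists only with an IDR peak, and for each member with an IDR peak the 3 most alike genes. The members and lists were chosen with earlier results of these data known. Scripts ran in Python 3.11.15 with numpy 2.4.6, pandas 2.3.3 and matplotlib 3.10.9, and the assignment code was tested on simulated data.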

Additional observations from a re-analysis of the deposited data

How the results depend on the processing

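With 1 replicate list alone in place of the pooled list, the regions of the members numbered 1 to 5 (6 as reported) and the members with a region 1 to 4 (4 as reported); the value of 1 came from replicate 1 alone. The ranking of ceh-38 within its list moved from the top 0.00769% to 0.177% without replicate 2 and 0.0264% without replicate 1, and that of ceh-48 from 2.90% to 1.69% without replicate 1. Ranked by −log10 q-value, both were among the 402 pooled regions tied at the ceiling, with 96.9% of the list below them. The middle of that tie lies at 1.55%, which is not comparable with the ranks by signal. Within 150 bp of the point TAATTA was in 1 region (12.3% of all pooled regions), ATCGAT in 2 (10.1%) and ATTGAT in 2 (27.9%). Within 50 bp ATTGAT was in 0 (9.98%). Of the results under alternatives, 31 stayed within 1.5 times the reported value and 11 moved further, and the cause was not tested. Assigning by nearest start alone, by gene body alone, within 3000 bp or by any shared base left 4 members with a pooled region. The first 2 of these left 1 with an IDR peak. The regions of the members did change with assignment, from 6 as reported to 5 by nearest start alone and 4 by gene body alone. They numbered 6 within 3000 bp and 7 by any shared base. No paired analysis was possible because both samples belong to 1 group. Unknown depth limits what the absence of a region shows.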
